A study of Mus musculus with 4 samples.

Results

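The genes described here are 10 enzymes and partners that write or erase repressive marks on chromatin: the core of Polycomb repressive complex 2 (Ezh2, Ezh1, Eed and Suz12), the DNA methyltransferases Dnmt1, Dnmt3a and Dnmt3b with the maintenance factor Uhrf1, and the dioxygenases Tet1 and Tet3. They were taken by gene name, and each of the 10 names had 1 row among the 20421 genes of the table. Their RNA was counted in the brain of C57BL/6 mouse embryos at embryonic day 15, in animals labelled FOXM1f/+;Nestin-Cre and in animals labelled WT. FOXM1 is a forkhead transcription factor of dividing cells, the series' title speaks of the human gene, and Nestin-Cre drives Cre recombinase in neural progenitors. The sources used here do not say how the FOXM1 allele is built. Of 4 listed samples, 2 carry each genotype label. The titles of the WT samples name nestin for 1 and foxm1 for the other, so a WT animal may carry either allele alone. The table holds 1 column of read counts per genotype, and no column could be tied to a sample. The design text speaks of triplicates, and a column may hold 1 embryo, a pool or several merged samples. Each column is called a library here, and each difference below is between 2 such columns, with no replicate check.

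As background, Polycomb repressive complex 2 methylates lysine 27 of histone H3 and keeps developmental genes silent. Ezh2 is its catalytic subunit in dividing cells and Ezh1 the related subunit that persists in cells that have left the cycle, while Eed binds the methylated histone and Suz12 holds the complex together. In the developing cortex the complex acts in progenitors, on the timing of neurogenesis and on the switch to making glia. Methylation of cytosine in CpG pairs is set by Dnmt3a and Dnmt3b and copied at each replication by Dnmt1, which Uhrf1 brings to newly made DNA. Tet enzymes oxidise methylcytosine, a first step of its removal.

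The FOXM1f/+;Nestin-Cre library held 17856653 reads and the WT library 17543705. Mouse Foxm1 had 72.2 against 64.9 CPM (reads scaled to equal library totals), a ratio of 1.11 with an exact 95% interval of 1.03 to 1.21. Intervals here cover counting error only. For Xist, the RNA of the inactive X, the counts were 9628 reads in the FOXM1f/+;Nestin-Cre library and 5 in the WT library, and the Y-linked gene Eif2s3y had 0 against 1266. Sex content thus differed between the libraries together with the genotype, and the effects of both cannot be told apart. Neuronal RNA marked both libraries as brain, with Tubb3, a neuronal tubulin, at 2903 and 2947 CPM.

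The ratios of the 10 genes, FOXM1f/+;Nestin-Cre over WT, ran from 0.91 for Ezh1 to 1.34 for Dnmt3b, with 7 above 1 and 3 below. All 10 averaged 1 CPM or more over both libraries, as did 14557 genes in all. Uhrf1 and Dnmt3b were higher by 1.2-fold or more in FOXM1f/+;Nestin-Cre, and 0 of 10 were lower by that much. Of all 14557 genes, 11.4% were higher by 1.2-fold or more and 15.7% lower. At 1.1-fold, 5 members were higher and 1 lower, beside 23.4% and 27.9% of all genes. At 1.5-fold 0 members were higher and 0 lower, beside 2.53% and 5.23%, and at 2-fold likewise 0 and 0, beside 0.522% and 1.83%. At 1.2-fold the shares were smaller among genes with more reads. Of 6661 genes whose mean CPM lay from that of Tet1 to that of Dnmt1, 4.71% were higher and 5.84% lower. That range holds 9 of the 10 members, and of these Uhrf1 alone was higher by 1.2-fold or more. The interval of the ratio lay wholly above 1 for 4 members (Ezh2, Suz12, Uhrf1 and Dnmt3b), below 1 for 0 and across 1 for 6. Of all genes, 16.5% had intervals above 1 and 19.2% below. Intervals narrow with more reads, so these shares are no background matched for depth, here or for the lists below. The median log2 ratio of the 10 was 0.12, against -0.01 over all genes. Summed over the 10, the level was 1039 CPM in FOXM1f/+;Nestin-Cre and 966 CPM in WT.

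**Figure D1:**
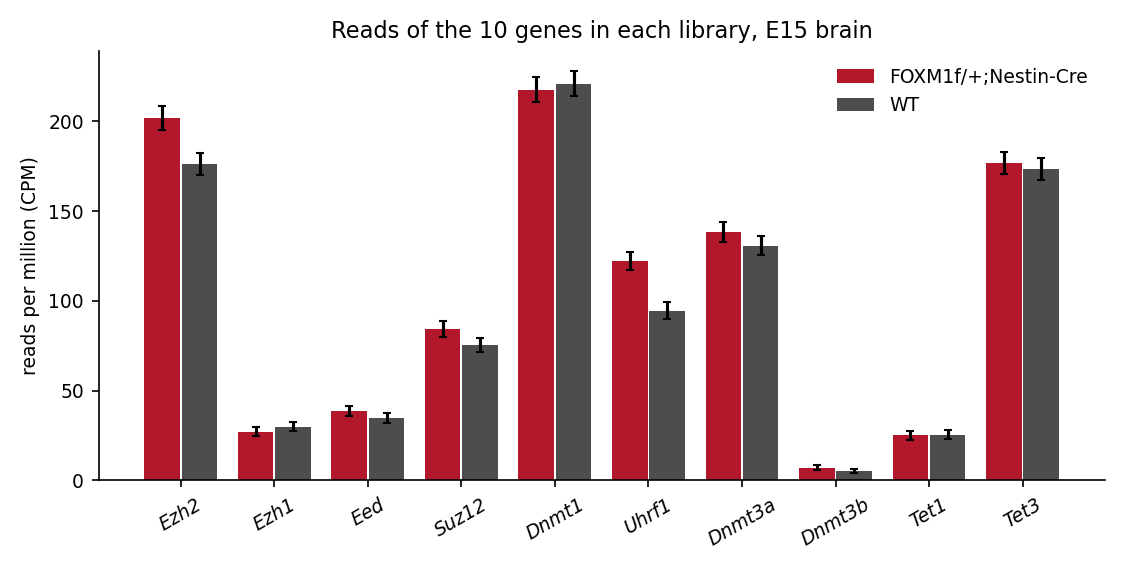
Level in CPM (vertical axis) of the 10 genes in the FOXM1f/+;Nestin-Cre library (red, left bar) and the WT library (grey, right bar), with exact Poisson 95% intervals for counting error. Dnmt1, Ezh2 and Tet3 take the most reads and Dnmt3b the fewest, and Uhrf1 has the widest visible gap, at 122 against 94.5 CPM.

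Among the Polycomb genes, both structural subunits and Ezh2 had ratios between 1.11 and 1.15, and Ezh1 had a ratio below 1. All promoter windows of the 4 Polycomb genes are shown, with those of Uhrf1 and Dnmt3b, so that every member whose interval lay above 1 can be set beside Eed and Ezh1. The windows of Dnmt1, Dnmt3a, Tet1 and Tet3 were searched and are not printed. Each window runs from 250 bases before to 50 bases after an annotated start in RefSeq on GRCm38.p6, in the direction of the gene, with E2F-type matches in capitals. E2F factors are activators and repressors of genes of the G1/S transition. The windows are chr6:47594981-47595280 on the minus strand for Ezh2, chr11:79992856-79993155 on the plus strand for Suz12, chr7:89980927-89981226 on the minus strand for Eed and chr11:101226414-101226713 on the minus strand for Ezh1. Uhrf1 has windows at chr17:56303087-56303386 (start 1) and chr17:56304063-56304362 (start 2), and Dnmt3b at chr2:153649199-153649498, all on the plus strand.
Ezh2: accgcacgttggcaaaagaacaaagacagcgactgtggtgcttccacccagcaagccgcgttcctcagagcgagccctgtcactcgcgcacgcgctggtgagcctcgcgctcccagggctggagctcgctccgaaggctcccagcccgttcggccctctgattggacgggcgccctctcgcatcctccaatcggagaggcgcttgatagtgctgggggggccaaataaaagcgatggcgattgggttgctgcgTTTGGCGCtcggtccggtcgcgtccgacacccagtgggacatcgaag
Suz12: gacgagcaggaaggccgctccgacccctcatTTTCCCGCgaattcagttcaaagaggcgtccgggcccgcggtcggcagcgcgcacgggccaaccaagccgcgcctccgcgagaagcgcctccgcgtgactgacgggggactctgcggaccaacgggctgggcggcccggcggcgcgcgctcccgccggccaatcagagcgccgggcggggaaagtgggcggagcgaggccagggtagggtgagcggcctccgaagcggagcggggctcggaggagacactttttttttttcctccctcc
Eed: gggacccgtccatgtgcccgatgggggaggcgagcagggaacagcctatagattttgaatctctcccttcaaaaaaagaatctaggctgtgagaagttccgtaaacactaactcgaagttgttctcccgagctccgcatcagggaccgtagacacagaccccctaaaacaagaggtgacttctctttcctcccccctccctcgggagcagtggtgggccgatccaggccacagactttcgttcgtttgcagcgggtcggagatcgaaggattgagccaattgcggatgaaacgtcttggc
Ezh1: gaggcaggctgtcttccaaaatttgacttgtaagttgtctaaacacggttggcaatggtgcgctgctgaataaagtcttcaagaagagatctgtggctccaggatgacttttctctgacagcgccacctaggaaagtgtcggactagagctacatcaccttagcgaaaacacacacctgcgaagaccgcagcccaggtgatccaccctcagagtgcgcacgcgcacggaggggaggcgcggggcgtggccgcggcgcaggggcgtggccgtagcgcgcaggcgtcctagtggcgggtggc
Uhrf1, start 1: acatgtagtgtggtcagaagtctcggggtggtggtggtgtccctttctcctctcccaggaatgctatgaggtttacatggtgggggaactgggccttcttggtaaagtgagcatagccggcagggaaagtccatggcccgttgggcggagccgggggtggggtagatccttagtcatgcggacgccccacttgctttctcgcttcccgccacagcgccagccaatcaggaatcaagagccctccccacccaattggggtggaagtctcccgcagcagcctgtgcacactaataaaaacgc
Uhrf1, start 2: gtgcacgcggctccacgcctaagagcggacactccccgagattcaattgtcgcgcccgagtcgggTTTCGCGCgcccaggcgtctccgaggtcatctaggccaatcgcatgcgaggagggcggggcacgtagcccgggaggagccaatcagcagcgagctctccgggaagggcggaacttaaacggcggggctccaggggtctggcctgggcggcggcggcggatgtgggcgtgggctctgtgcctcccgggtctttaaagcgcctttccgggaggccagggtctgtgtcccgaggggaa
Dnmt3b: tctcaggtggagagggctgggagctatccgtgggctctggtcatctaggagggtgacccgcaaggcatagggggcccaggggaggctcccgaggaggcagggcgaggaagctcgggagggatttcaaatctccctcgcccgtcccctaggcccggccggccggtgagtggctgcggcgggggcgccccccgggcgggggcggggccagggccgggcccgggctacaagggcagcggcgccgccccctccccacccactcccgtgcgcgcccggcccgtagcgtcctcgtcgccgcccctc

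The E2F-type motif was searched in 4 spellings, TTTGGCGC, TTTCGCGC, TTTCCCGC and TTTGCCGC, on both strands. It was found at position 4 after the start of Ezh2, at -219 in Suz12 and at -185 in the second window of Uhrf1. The third of 3 windows of Dnmt1 held it at -219 on the opposite strand and at 34. Of 15 windows of the 10 genes, 4 held a match, from 4 genes, against 2.27% of 32841 windows of all genes. The windows of Eed, Ezh1 and Dnmt3b and the first of Uhrf1 held none of the 4 spellings. None of the E2F-type matches overlapped a match of another motif searched. A related spelling outside the 4, TTCCCGCC, was found at -48 in the first window of Uhrf1 and in 2.19% of all windows. The cell cycle genes homology region (CHR), searched as TTTGAA or TTCGAA, was found in 1 window each of Eed, Suz12, Dnmt1 and Dnmt3b, and in 19.2% of all windows. The forkhead-type motif TGTTTA was found in the windows of Ezh1 and Eed and in 13.4% of all; in Eed it lies within its longer form TGTTTAC, which 3.65% of all windows held. A match describes these letters only: Dnmt1 held the E2F-type motif with a ratio of 0.99, and Dnmt3b, with 1.34, did not. The windows of the 10 genes held 2 to 47 CpG pairs, with a median of 23, against a median of 7 over all windows. Each of the 4 E2F-type spellings holds a CpG pair, and the 2.27% of all windows was not matched for CpG pairs. Whether the 10 genes hold the motif more often than other windows rich in CpG was not tested.

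**Figure D2:**
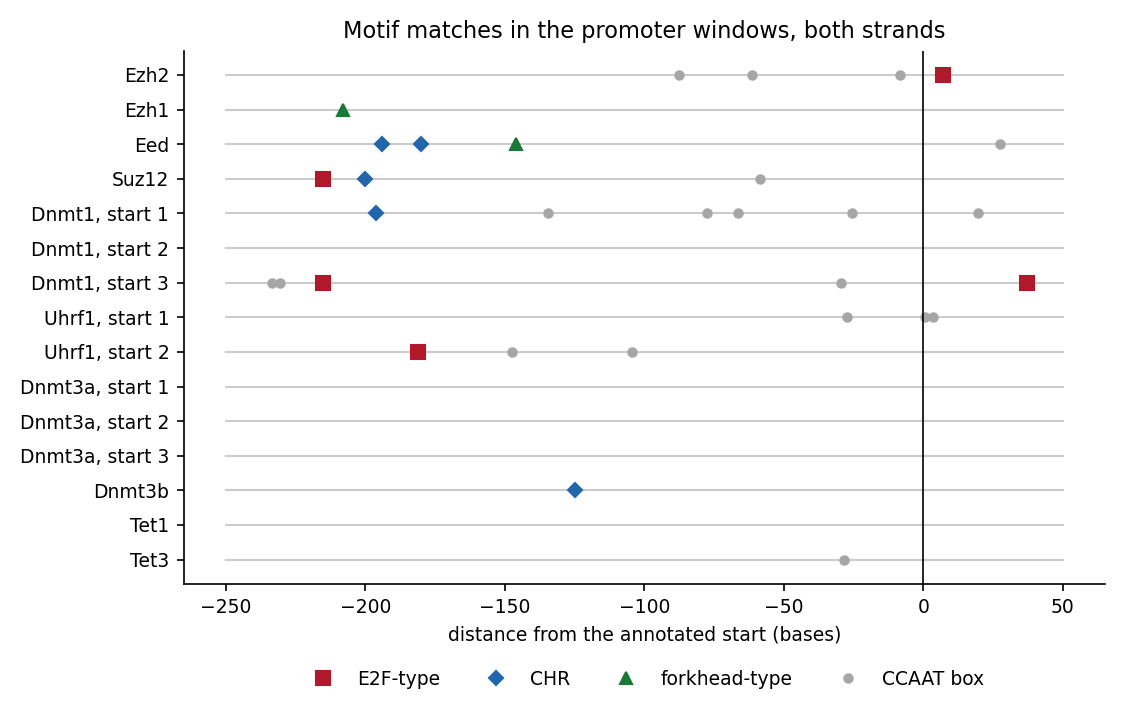
Motif matches on both strands of the 15 promoter windows of the 10 genes, by distance in bases from the annotated start (horizontal axis). Red squares mark E2F-type matches, which 4 windows hold (Ezh2, Suz12, Dnmt1 start 3 and Uhrf1 start 2); blue diamonds CHR, green triangles forkhead-type and grey circles CCAAT box matches.

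Ezh2 (ENSMUSG00000029687; chromosome 6, 47530139 to 47595341, minus strand, GRCm38), the main enzyme of the complex, had 3605 reads in FOXM1f/+;Nestin-Cre and 3091 in WT. At 202 against 176 CPM its ratio was 1.15 (1.09 to 1.203), and 83.5% of all genes had a lower one. Suz12 (ENSMUSG00000017548; chromosome 11, 79993106 to 80034123) had 1507 against 1322 reads, a ratio of 1.12 (1.04 to 1.21). No difference between scaffold and enzyme was detectable: the ratio of Suz12 divided by that of Ezh2 was 0.98 (0.89 to 1.07). Eed (ENSMUSG00000030619; chromosome 7, 89954654 to 89980983) had 687 against 607 reads and a ratio of 1.11, with an interval of 0.995 to 1.24 that reached just below 1. Antisense to Eed, E230029C05Rik had 3 against 19 reads and shares 261 exon bases with it. Whether the counting used strand is unknown, so reads of the pair could have been exchanged.

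Ezh1 (ENSMUSG00000006920; chromosome 11, 101191115 to 101226463), the alternative catalytic subunit, had 485 reads in FOXM1f/+;Nestin-Cre and 525 in WT. Its 27.2 against 29.9 CPM make it 1.102-fold lower (0.97 to 1.25), an interval that holds no difference. The balance of the enzymes differed by more than counting error. Ezh2 had 7.43 reads for each Ezh1 read in FOXM1f/+;Nestin-Cre and 5.89 in WT, a ratio of these ratios of 1.26 (1.103 to 1.44) that no library scaling can change. Per length of merged exons, Ezh2 made up 89.2% of both enzymes in FOXM1f/+;Nestin-Cre (88.3 to 90.1, exact Clopper-Pearson interval) and 86.8% in WT (85.7 to 87.8). Ezh2 is thus the major form in both libraries.

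Of the maintenance pair, Uhrf1 was higher in FOXM1f/+;Nestin-Cre, and the interval of Dnmt1 spanned 1. Uhrf1 (ENSMUSG00000001228; chromosome 17, 56303321 to 56323486), a ubiquitin ligase that recognises hemimethylated DNA, had 2180 reads against 1658 in WT. Its 122 against 94.5 CPM give a ratio of 1.29 (1.21 to 1.38), above that of 93.5% of genes. Dnmt1 (ENSMUSG00000004099; chromosome 9, 20907209 to 20959888), the enzyme that Uhrf1 recruits, had 3888 against 3875 reads. Its 218 against 221 CPM give a ratio of 0.99, with an interval of 0.94 to 1.03. Uhrf1 had 0.56 reads for each Dnmt1 read in FOXM1f/+;Nestin-Cre and 0.43 in WT, a ratio of ratios of 1.31 (1.21 to 1.42). The processed pseudogenes Gm15953 and Gm5648, which the authors' annotation matches to the same protein as Uhrf1, had 5 against 0 and 6 against 3 reads.

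Of the de novo enzymes, Dnmt3a took most of the reads. Dnmt3a (ENSMUSG00000020661; chromosome 12, 3806007 to 3914443) had 2470 reads in FOXM1f/+;Nestin-Cre and 2296 in WT, a ratio of 1.06 with an interval of 0.998 to 1.12 whose lower end lies just under 1. Dnmt3b (ENSMUSG00000027478; chromosome 2, 153649450 to 153687730), which is most active in the early embryo, had 128 against 94 reads. Its 7.17 against 5.36 CPM give the highest ratio of the 10, 1.34, and also the widest interval, 1.02 to 1.77. Set against each other, Dnmt3b and Dnmt3a had a ratio of ratios of 1.27 (0.96 to 1.68), which spans 1. Dnmt3c, a rodent copy of Dnmt3b next to it on chromosome 2, had 4 against 1 reads.

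Both Tet genes had ratios close to 1, with intervals that span it. Tet3 (ENSMUSG00000034832; chromosome 6, 83362373 to 83459084), the Tet gene with the most reads, had 3157 reads in FOXM1f/+;Nestin-Cre and 3041 in WT, a ratio of 1.02 (0.97 to 1.07). Tet1 (ENSMUSG00000047146; chromosome 10, 62804570 to 62908996) had 448 against 446 reads, a ratio of 0.99 (0.86 to 1.13). Tet2, the family's remaining enzyme, had 497 against 475 reads and a ratio of 1.03 (0.905 to 1.17). Tet3 had 7.05 reads for each Tet1 read in FOXM1f/+;Nestin-Cre and 6.82 in WT, and the ratio of ratios of 1.03 (0.896 to 1.19) spans 1.

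**Figure D3:**
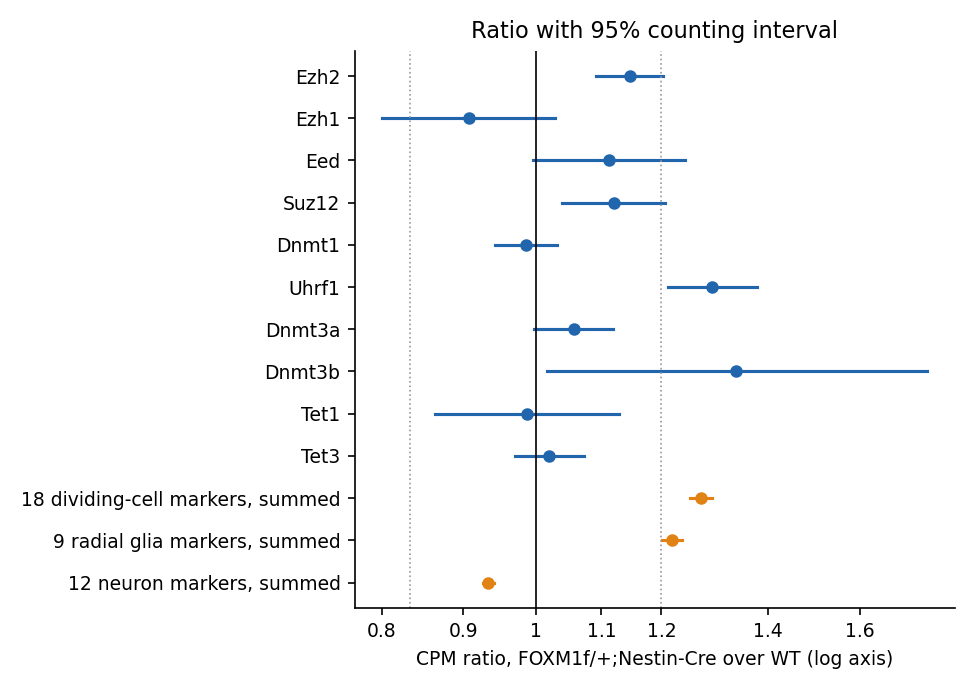
CPM ratio of FOXM1f/+;Nestin-Cre over WT (log axis) with exact 95% counting intervals, for the 10 genes (blue) and for the summed reads of 3 marker lists (orange); dotted lines mark 1.2-fold. Uhrf1 lies level with the dividing-cell markers at 1.27, Ezh2, Suz12 and Eed lie between those and 1, and Dnmt1, Tet1 and Tet3 lie near 1.

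Levels can be compared between genes only per length, here as CPM per kilobase of merged exons. In FOXM1f/+;Nestin-Cre the order was Ezh2 (30.2 CPM per kilobase), Dnmt1 (29.5), Uhrf1 (28.7), Suz12 (17.1), Tet3 (10.6), Eed (10.1), Dnmt3a (8.31), Ezh1 (3.65), Tet1 (1.62) and Dnmt3b (1.404). In WT it was Dnmt1 (29.9), Ezh2 (26.4), Uhrf1 (22.2), Suz12 (15.2), Tet3 (10.4), Eed (9.04), Dnmt3a (7.86), Ezh1 (4.02), Tet1 (1.64) and Dnmt3b (1.05). Ezh2, Dnmt1 and Uhrf1 led in both libraries, Ezh1 came eighth, and Tet1 and Dnmt3b closed the order. In FOXM1f/+;Nestin-Cre the counting intervals of Ezh2 (29.2 to 31.2) and Dnmt1 (28.6 to 30.5) overlapped, as did those of Dnmt1 and Uhrf1 (27.5 to 29.9), of Tet3 and Eed, and of Tet1 and Dnmt3b. In WT those of Dnmt1 (29.0 to 30.9) and Ezh2 (25.5 to 27.3) did not. Over the length of the longest annotated transcript instead, Ezh2 came first in both libraries, with 72.4 CPM per kilobase in FOXM1f/+;Nestin-Cre and 63.2 in WT, ahead of Dnmt1 with 37.1 and 37.6. By that length Eed also came ahead of Tet3, with 18.6 against 16.2 CPM per kilobase in FOXM1f/+;Nestin-Cre and 16.7 against 15.9 in WT. The order of Tet3 and Eed thus depends on the length used.

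Markers of dividing cells moved in the direction of Uhrf1 and Ezh2. All 18 genes of that list had intervals above 1, and 14 of 18 were higher by 1.2-fold or more. Over all genes the shares were 16.5% and 11.4%. The list and the fold were chosen with earlier results of these data known, so these counts are no independent test. The summed level of the markers was 1819 CPM in FOXM1f/+;Nestin-Cre and 1431 CPM in WT, a ratio of 1.27 (1.25 to 1.29). Top2a, which untangles DNA, had 261 against 203 CPM. Per 1000 reads of these markers, Uhrf1 had 67.1 reads in FOXM1f/+;Nestin-Cre and 66.0 in WT, a ratio of 1.02 (0.95 to 1.09), and for Dnmt3b the ratio was 1.05 (0.80 to 1.39). On that scale the other 8 members were lower in FOXM1f/+;Nestin-Cre, each with an interval below 1. The marker sum itself had a ratio of 1.27, so a gene with equal CPM in both libraries also falls below 1 here. A value below 1 on this scale is thus no drop in CPM. Ezh2 had 111 against 123 reads per 1000, a ratio of 0.90 (0.86 to 0.95), and Dnmt1 120 against 154, a ratio of 0.78 (0.74 to 0.81). Ezh1 stood lowest, at 14.9 against 20.9 reads and a ratio of 0.71 (0.63 to 0.81). In bulk brain tissue, more cells of a type and more RNA per cell cannot be told apart. The part of the dividing-cell markers in the members' ratios was not tested.

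Other cell types differed too. The 9 apical radial glia markers summed to 2244 CPM in FOXM1f/+;Nestin-Cre and 1842 CPM in WT (ratio 1.22, 1.2004 to 1.24). Intervals lay above 1 for 6 of 9, and 3 of 9 were higher by 1.2-fold or more, beside 16.5% and 11.4% of all genes. Vim and Fabp7 had ratios of 1.32 and 1.19. The intervals of Hes1, Slc1a3 and Pax6, named after their values were seen, spanned 1. The 12 neuron markers summed to 7634 and 8176 CPM (ratio 0.934, 0.927 to 0.941). Intervals lay below 1 for 9 of 12, and 3 of 12 were lower by 1.2-fold or more, beside 19.2% and 15.7% of all genes. With many reads a small difference is enough for such an interval: Tubb3 is among the 9 at a ratio of 0.985 (0.973 to 0.997). Choroid plexus markers summed to 24.5 CPM in FOXM1f/+;Nestin-Cre and 704 CPM in WT, of which Ttr alone gave 9.91 and 642. Otx2, of the same list, had 211 against 223 reads and a ratio of 0.93 (0.77 to 1.13). Summed erythroid markers were at 1181 against 736 CPM, and 5 of 8 were higher by 1.2-fold or more, beside 11.4% of all genes. The erythroid genes differed unevenly. Hbb-y, named after its value was seen, had 3194 against 499 reads, a ratio of 6.29 (5.72 to 6.92). Hbb-bh1 and Hba-x, named in the same way, had ratios of 4.54 (2.08 to 11.3, at 37 against 8 reads) and 2.62 (2.17 to 3.18). Hba-a1 and Hbb-bs had ratios of 1.70 and 1.29. Hbb-bt, Hba-a2 and Alas2, named in the same way, had intervals that span 1. Microglia markers summed to 33.2 against 41.8, endothelium and pericytes to 175 against 201 and oligodendrocyte precursors to 68.7 against 88.0 CPM. None of the markers of these 7 lists was at 0 in either library, and their part in the members' ratios was not tested.

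**Figure D4:**
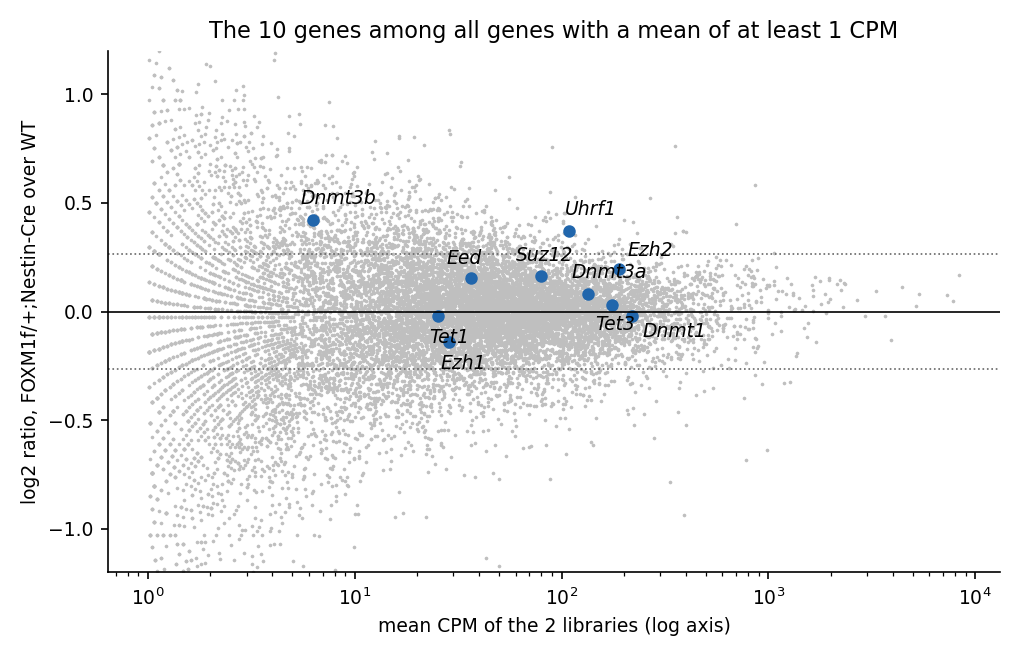
Log2 ratio of FOXM1f/+;Nestin-Cre over WT against mean CPM (log axis) for genes averaging 1 CPM or more (grey; genes beyond 1.2 on the log2 scale are not drawn) and the 10 members (blue). Dotted lines mark 1.2-fold; Uhrf1 at 0.37 and Dnmt3b at 0.42 lie above them, Dnmt3b at low reads where the grey cloud is wide.

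The partners that make up the rest of Polycomb complex 2 did not share one direction. Of 9 accessory subunits, 0 were higher by 1.2-fold or more and 2 lower, beside 11.4% and 15.7% of all genes. Their median log2 ratio was -0.02. Intervals lay above 1 for 3 of the 9 and below 1 for 1, beside 16.5% and 19.2% of all genes. The 3 include Rbbp4, named after its value was seen, with 298 against 275 CPM and a ratio of 1.08 (1.04 to 1.13). Phf1, which reads methylated lysine 36 of histone H3, had 61.2 against 73.5 CPM and was 1.2004-fold lower (1.11 to 1.302). The gene past that fold beside it, Lcor, named after its value was seen, had 24 against 34 reads and an interval that spans 1. Aebp2, a DNA-binding cofactor, had 48.5 against 41.2 CPM, a ratio of 1.18 (1.07 to 1.303), and the histone chaperone Rbbp7 139 against 127 CPM, a ratio of 1.09 (1.03 to 1.16).

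Polycomb complex 1, which ubiquitinates histone H2A and compacts chromatin, was measured by 21 subunits. Of these, 0 passed 1.2-fold in either direction, beside 11.4% of all genes higher and 15.7% lower. The median log2 ratio of the subunits was -0.01. Intervals lay above 1 for 3 of the 21 and below 1 for 6, beside 16.5% and 19.2% of all genes. Among subunits averaging 10 CPM or more, the largest differences were those of Rybp, Kdm2b and Pcgf6. Rybp was 1.18-fold lower (1.02 to 1.36), with 20.3 against 24.0 CPM. Kdm2b, which brings the complex to CpG islands, was 1.17-fold lower (1.09 to 1.25), and Pcgf6 1.16-fold lower (1.04 to 1.301). L3mbtl2, named after its value was seen, was higher, with a ratio of 1.13 (1.004 to 1.28).

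Among genes that oppose Polycomb, the demethylase Kdm6a stood apart. Of 7 genes of the H3K27 demethylase and Bap1 list, Kdm6a was past 1.2-fold higher and Uty past it lower. Over all genes, for this list and those that follow, 11.4% were higher by that much and 15.7% lower. Kdm6a, on the X chromosome, had 646 reads in FOXM1f/+;Nestin-Cre and 430 in WT, a ratio of 1.48 (1.304 to 1.67). Uty, its Y-linked relative, named after its value was seen, had 0 against 202 reads. Summed, the pair had 646 against 632 reads, or 36.2 against 36.0 CPM, a ratio of 1.004 (0.899 to 1.12). Kdm6a escapes X inactivation, and sex content and genotype cannot be told apart here. Kdm6a aside, Asxl2 and Asxl3, cofactors of the deubiquitinase Bap1, had ratios of 1.12 (0.97 to 1.302) and 0.89 (0.796 to 1.001). Of 12 genes for H3K4 methylation by the Trithorax group, 1 was higher by 1.2-fold or more, the shared subunit Dpy30 at 59.2 against 47.8 CPM, and 0 lower; Rbbp5 and Setd1b were 1.11-fold (1.01 to 1.21) and 1.104-fold (1.03 to 1.19) lower. Of 10 genes of H3K9 methylation 0 passed 1.2-fold, with Suv39h1 at 1.12 (1.02 to 1.23), Cbx1 at 1.11 (1.06 to 1.17) and Ehmt2 at 0.97 (0.94 to 1.01).

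Of 9 measured partners of DNA methylation, 4 were higher by 1.2-fold or more and 0 lower, beside 11.4% and 15.7% of all genes, with a median log2 ratio of 0.19. Hells, the remodeller that opens nucleosomes for Dnmt enzymes, had 719 against 438 reads, 40.3 against 24.97 CPM and a ratio of 1.61 (1.43 to 1.82). Cdca7l, a relative of its activator Cdca7, named after its value was seen, had 152 against 92 reads and a ratio of 1.62 (1.24 to 2.13). DNA ligase Lig1, which also binds Uhrf1, had 109 against 89.0 CPM, a ratio of 1.23 (1.15 to 1.31), and the sliding clamp Pcna 267 against 218 CPM, a ratio of 1.22 (1.17 to 1.28). Pcna and Lig1 are replication genes, higher in the same library as the dividing-cell markers, whose part in these ratios was not tested.

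Partners of demethylation, readers and methyl supply were mixed. Their counts stand beside 11.4% of all genes higher by 1.2-fold or more and 15.7% lower. Of 12 demethylation partners, 2 were higher by 1.2-fold or more and 0 lower. One is Gadd45g, a growth arrest and DNA damage gene, at 119 against 86.9 CPM and a ratio of 1.37 (1.28 to 1.46). The other is Gadd45b, named after its value was seen, with 58 against 39 reads and an interval that spans 1. The repair nuclease Apex1 had a ratio of 1.15 (1.01 to 1.32), and Ogt, a sugar transferase that binds Tet proteins, was 1.08-fold lower (1.03 to 1.12). Of 8 methyl-CpG readers, 1 was higher by 1.2-fold or more and 0 lower. It is Mbd4, a repair glycosylase named after its value was seen, with 179 against 136 reads and a ratio of 1.29 (1.03 to 1.63). Zbtb4 had a ratio of 0.90 (0.76 to 1.05) and Mbd3 1.05 (1.01 to 1.09). Of 12 genes of methyl donor metabolism, 2 were higher by 1.2-fold or more and 1 lower. Ahcy, which clears the product of methyl transfer, had a ratio of 1.23 (1.14 to 1.33), while Ahcyl2 was 1.32-fold lower (1.15 to 1.51).

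**Figure D5:**
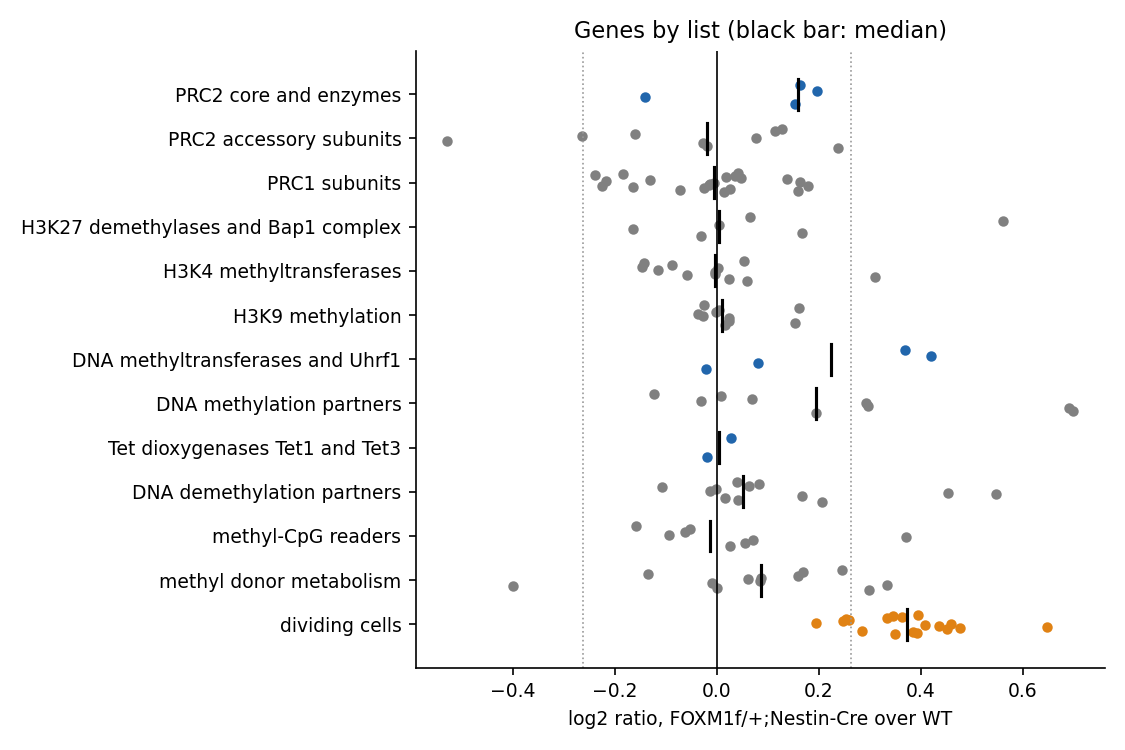
Log2 ratio of FOXM1f/+;Nestin-Cre over WT for each gene averaging 1 CPM or more, by list; the members are blue, the dividing-cell markers orange, black bars are list medians and dotted lines mark 1.2-fold. Uty, at 0 reads in FOXM1f/+;Nestin-Cre, has no point. Complex 1 subunits lie within 1.2-fold, and the DNA methylation partners reach 0.70.

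Of genes that these systems are known to keep silent, 39 Hox genes, the classic Polycomb targets, were not analysed here, as they had no row in the table used. Of 12 other Polycomb targets 7 had rows, and 1 of them, Sox17, an endothelial and endodermal factor, averaged 1 CPM or more. Its counts of 60 against 94 reads make Sox17 1.59-fold lower (1.14 to 2.24), in the direction of the endothelial markers, a relation that was not tested. The mesoderm gene T had 14 against 12 reads. Of 16 germline genes that DNA methylation silences, 7 had rows and 3 averaged 1 CPM or more. Of these, 0 were higher and 2 lower by 1.2-fold or more, beside 11.4% and 15.7% of all genes. The intervals of all 3 span 1. Brdt, a testis bromodomain protein, had 77 against 86 reads, Tdrd1 18 against 30, and Ddx4, a germ cell helicase named after its value was seen, 14 against 25.

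In the authors' deposited table, 0 of the 10 genes were marked as significant, and the criterion is not stated in the sources used here. The mark cannot rest on the deposited adjusted p-values alone, which were small for the unmarked Uhrf1 and Ezh2. Those p-values compare 1 column with 1 column. Its fold changes of FOXM1f/+;Nestin-Cre over WT ran, for the 10, from 1.34 for Dnmt3b and 1.29 for Uhrf1 to 0.91 for Ezh1 in the authors' deposited table. The ontology terms that the authors attached to the genes place all 10 in the nucleoplasm. They put Ezh2, Ezh1, Eed and Suz12 in the E(Z) complex, a term held by 17 genes of the table, and Dnmt1, Uhrf1, Dnmt3a and Dnmt3b under DNA methylation on cytosine, a term held by 7.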

How the data were processed

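Total RNA was taken from embryonic day 15 mouse brain with Trizol, and 2 ug per sample went into the libraries, per the labels' protocols. Per the submitters' processing notes, the tools were TopHat2 2.0.12, Bowtie2 2.2.3 and HTSeq 0.6.0, with mm9 as the build. Neither the annotation release nor the strand setting is stated in the sources used here. The deposited coordinates are GRCm38: 91.7% of 20388 gene IDs found in GENCODE M21, and all 10 members, had the same start and end there. The table has raw read counts and CPM for each genotype, per the file headers; in the authors' CPM a count of 0 stands as 0.5 reads. The authors' deposited fold change is a ratio of these columns, with its log2, and their deposited p-values compare 1 column with 1 column.

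CPM were recomputed from the counts and column totals of 17856653 and 17543705 reads. Ratios carry exact conditional 95% intervals for 2 Poisson rates, and ratios between genes carry exact conditional intervals of the odds ratio; the gene pairs were chosen after their values were seen. Reads are not independent molecules, so intervals cover counting error only. No test across samples was possible with 1 column per genotype, and edgeR's quasi-likelihood test was not run. Calls use 1.2-fold among genes averaging 1 CPM or more. Members, lists and the fold were chosen with earlier results of these data known. Named genes are the 10 members, Foxm1 and Tet2, then from each pathway list up to 3 genes averaging 10 CPM or more with the largest ratio (up to 2 by level where none has 10 CPM), and from each marker list up to 2 by level; some of these are not reported here. Lengths are from GENCODE M21. Promoter windows of 300 bases are from RefSeq on GRCm38.p6; bases 1 to 40 after the start were found in a GENCODE M21 transcript of the gene for 13 of 15 member windows. In all, 12 motif spellings were searched after the values were known.

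The procedure was tested on simulated counts. With 1 column per genotype, these could carry no measured variation between embryos or libraries, so the test says nothing about that variation. Python 3.11.15, NumPy 2.4.6, pandas 2.3.3, SciPy 1.17.1, Matplotlib 3.10.9, R 4.3.3 and edgeR 4.0.16 (scaling factors only) were used. Alternatives were TMM and RLE scaling, totals without sex-linked, plexus and erythroid markers, centring on the median, the authors' CPM, other folds, other minimums and the longest transcript as length.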

Additional observations from a re-analysis of the deposited data

How the results depend on the processing

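No paired analysis was possible because each genotype has 1 column, and for the same reason no replicate could be left out. Under TMM and RLE scaling, totals without sex-linked, plexus and erythroid markers, centring on the median of all genes and the authors' normalized columns, all 50 recomputed log2 ratios of members stayed inside their counting intervals; under RLE, Dnmt1 and Tet1, both near 0, changed sign. The median log2 ratio of the members ranged from 0.12 to 0.14 under these scalings. The counts depend on the fold: 5 members were higher and 1 lower at 1.1-fold, and 0 were higher at 1.5-fold and 0 at 2-fold. With a mean of at least 10 CPM, which Dnmt3b does not reach, 1 member was at least 1.2-fold higher. The share of all genes at least 1.2-fold higher was 18.2% and lower 24.0% with no minimum, and 6.62% and 7.85% with at least 10 CPM. By the longest transcript as length, the Ezh2 share of both enzymes was 91.8% in FOXM1f/+;Nestin-Cre and 89.9% in WT. Depth limits Dnmt3b most, with the fewest reads of the members (128 and 94) and the widest interval (1.02 to 1.77).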
